A study of Mus musculus with 8 samples.

Results

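The chemokines of the CXC and CX3C families described here, in 8 libraries of a mouse lung study, are Cxcl15, Cxcl5, Cxcl1, Cxcl2, Cxcl10, Cxcl12, Cxcl17, Cxcl16 and Cx3cl1. They were chosen by name, 9 of the 25124 genes in the deposited table, and all 9 had reads. Only 4 of them (Cxcl15, Cxcl12, Cxcl17 and Cx3cl1) reached the mean of 10 normalized counts that was required for testing, as did 7512 genes in all. A normalized count is a read count divided by 1 factor per library. The other 5 are described by their reads, and a fit of one of them without that filter is named as such.

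The libraries were RNA-seq of cells sorted by flow cytometry from lungs of C57BL/6 mice and labelled airway epithelial cells. Each of the 4 groups had 2 libraries: STAT3-cKO with house dust mite (cKO HDM), STAT3-WT with house dust mite (WT HDM), STAT3-cKO with PBS (cKO PBS) and STAT3-WT with PBS (WT PBS). House dust mite is an allergen that gives mice type 2 airway inflammation, PBS is the saline control, and STAT3 is the transcription factor that carries signals of IL-6 and related cytokines to the nucleus. The Cre driver, the cell type that lost STAT3, the allergen schedule and the age of the animals are not stated in the labels. Nor do they say whether each library came from its own animal, so p-values measure only a spread among libraries that may be technical.

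Chemokines are small secreted or membrane-bound proteins that guide leukocytes through G protein-coupled receptors, and the spacing of their first cysteines gives the CXC and CX3C families their names. CXC chemokines with a glutamate-leucine-arginine motif before the cysteines (Cxcl1, Cxcl2, Cxcl5 and Cxcl15 among those here) attract neutrophils, and in many tissues Cxcl1 and Cxcl2 are switched on by NF-κB. Cxcl10 is induced by interferon and attracts T cells through Cxcr3, Cxcl12 is a constitutive stromal and endothelial ligand of Cxcr4, and Cxcl17 is made in mucosal epithelia. Cxcl16 and Cx3cl1 are made as membrane proteins on a mucin stalk, and the proteases Adam10 and Adam17 release them.

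Cxcl15 lies in a cluster of 7 chemokine genes on chromosome 5 that spans 146.579 kb on the forward strand (GRCm38, which is mm10), in the order Cxcl5, Ppbp, Pf4, Cxcl3, Cxcl15, Cxcl1 and Cxcl2. The cluster's members differed widely in reads summed over the 8 libraries. Cxcl15 (90794534 to 90803067) had 5563 reads, Cxcl5 (90759360 to 90761624) had 63, Pf4 had 13, Cxcl2 (90903871 to 90905938) had 7, Cxcl1 (90891241 to 90893115) had 4, and Ppbp and Cxcl3 had 0. Cxcl3 starts 8.431 kb before Cxcl15.

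Promoter sequences from RefSeq (GRCm38.p6, 250 bases before to 50 after the start) matched 6 of the 9 genes: Cxcl15, Cxcl12, Cx3cl1, Cxcl1, Cxcl2 and Cxcl10. They were searched on both strands for the STAT motif TTCNNNGAA, an ISRE-like motif (GAAA repeated after any 2 bases) and the 10-base NF-κB consensus. Of 32851 promoters of the same length, 8.30% held the STAT motif, 3.44% the ISRE-like motif and 8.46% the NF-κB consensus. Those of Cxcl15 and of its cluster neighbours Cxcl1 and Cxcl2 are shown because they contrast the most abundant and 2 of the least abundant of the 9 transcripts. Each is read 5′ to 3′ on the forward strand, and capitals mark the NF-κB consensus.
Cxcl15, chr5:90794284-90794583: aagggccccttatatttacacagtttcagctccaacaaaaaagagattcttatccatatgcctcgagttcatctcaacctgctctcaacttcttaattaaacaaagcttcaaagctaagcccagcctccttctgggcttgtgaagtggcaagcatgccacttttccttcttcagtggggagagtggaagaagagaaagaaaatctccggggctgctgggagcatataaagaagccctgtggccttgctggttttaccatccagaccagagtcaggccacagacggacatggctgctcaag
Cxcl1, chr5:90890995-90891294: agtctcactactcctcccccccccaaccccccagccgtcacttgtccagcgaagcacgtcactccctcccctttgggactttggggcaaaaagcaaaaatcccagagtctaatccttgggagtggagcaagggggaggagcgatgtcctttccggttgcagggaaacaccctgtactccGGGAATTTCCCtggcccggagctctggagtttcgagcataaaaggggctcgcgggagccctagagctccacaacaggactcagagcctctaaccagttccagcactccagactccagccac
Cxcl2, chr5:90903649-90903948: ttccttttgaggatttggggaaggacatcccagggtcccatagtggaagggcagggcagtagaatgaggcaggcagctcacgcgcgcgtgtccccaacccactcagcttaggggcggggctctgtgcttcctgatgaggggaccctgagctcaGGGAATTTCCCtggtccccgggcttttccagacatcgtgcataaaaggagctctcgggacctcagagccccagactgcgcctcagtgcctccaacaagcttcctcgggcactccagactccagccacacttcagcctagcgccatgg
Cxcl1 held the consensus from base -71 and Cxcl2 from base -97, counted from the start, on both strands with the matches offset by 1 base. Cxcl10 held the ISRE-like motif from base -213 and NF-κB matches from bases -159 and -104. None of the 3 motifs was found in the windows of Cxcl15, Cxcl12 and Cx3cl1, and none of the 6 windows held the STAT motif. A match or its absence describes these letters only.

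The libraries were shallow, with 232556 to 593200 reads. Of these, 2 stood apart from the rest on the first principal component, the first of cKO PBS (the shallowest, at 93.7) and the second of WT HDM (at -63.4), while the others lay between -26.3 and 8.05. Replicates correlated across genes at r = 0.56 to 0.77. Ciliated and club cell genes of the conducting airway took 0.972% to 1.93% and 1.44% to 3.67% of reads, and the alveolar type 2 list took 1.57% to 5.20%, so the sorted cells also carried transcripts of the alveoli. Stat3 itself stood at 76.9 and 92.2 normalized counts in cKO HDM, against 134 and 157 in WT HDM, and at 56.9 and 96.5 in cKO PBS, against 75.8 and 40.9 in WT PBS. It did not pass in either genotype comparison (limma adjusted p = 0.549 and 0.845) and its PBS groups overlapped. The names cKO and WT are used below as the labels give them.

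**Figure D1:**
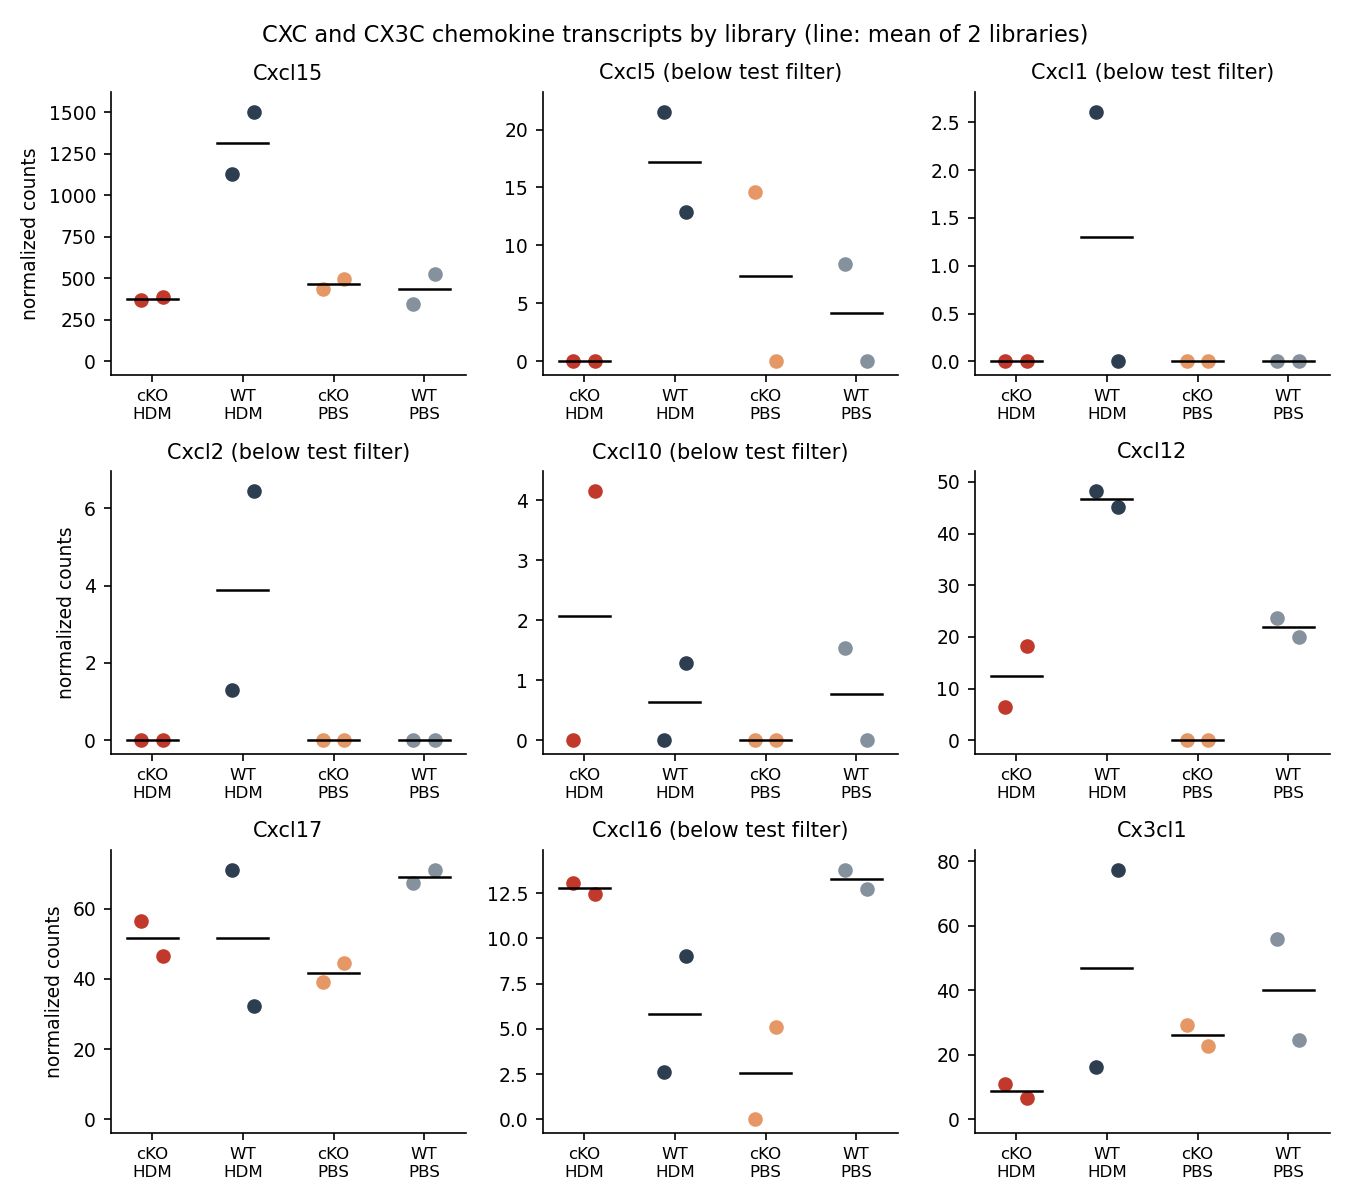
Normalized counts (y axes, linear, a separate range per gene) of the 9 chemokines in each library, by group (x axes); points are libraries and lines are means of 2 libraries. Both WT HDM libraries of Cxcl15 (1131 and 1503) lie above the other 6 (347 to 527), Cxcl12 is at 0 in both cKO PBS libraries, and the reads of Cxcl1 and Cxcl2 were in WT HDM libraries alone.

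Divided by exon length to compare genes, Cxcl15 was the most abundant of the 9, with a mean of 305 normalized counts per kb of exon over the 8 libraries (163 to 707). By plain normalized counts it ranked 26 among all genes in the table. Cxcl17 came next at 70.3 per kb (42.4 to 93.4), then Cx3cl1 at 7.75 (1.69 to 19.7), and these 3 ranges do not overlap. Cxcl5 at 3.86, Cxcl16 at 2.84 and Cxcl12 at 2.48 per kb had ranges that overlap each other and that of Cx3cl1. Cxcl2 at 0.468, Cxcl10 at 0.387 and Cxcl1 at 0.174 per kb were the lowest, and their ranges overlap those of the genes just above them.

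Of the neutrophil-attracting members, Cxcl15 (lungkine, a chemokine of mouse lung epithelium) was the only 1 tested. Its level was 370 and 385 normalized counts in cKO HDM, 1131 and 1503 in WT HDM, 434 and 494 in cKO PBS, and 347 and 527 in WT PBS. The WT HDM libraries were thus the high ones. Both cKO groups lay within the range of WT PBS, and cKO HDM lay below cKO PBS without overlap. In whole reads that was 510 and 464 in cKO HDM, 1734 and 1166 in WT HDM, 267 and 389 in cKO PBS, and 453 and 580 in WT PBS.

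The first question was how the cells of each genotype responded to the allergen. In WT, Cxcl15 rose to 1317 ± 263 normalized counts with HDM, against 437 ± 128 with PBS (SD, n = 2 each), a log2 difference of 1.61 ± 0.24 (SE; limma adjusted p = 0.00410). Cxcl12 was also higher with HDM without overlap (1.06 ± 1.00), a difference that did not pass. Across all 7512 genes, 0.506% were called higher in this comparison, and Cxcl15 was the only 1 of the 4 tested chemokines called. In cKO it averaged 378 ± 10.8 with HDM and 464 ± 42.2 with PBS, a log2 difference of -0.29 ± 0.24 with a 95% interval of -0.81 to 0.22 (limma adjusted p = 0.776). None of the 4 chemokines was called in cKO by limma, edgeR or DESeq2 (1 had a limma unadjusted p under 0.05), where limma called 0.0532% of all genes. The WT call was lost without the second WT HDM library (1.40, limma adjusted p = 0.114) and without the first WT PBS library (1.30, limma adjusted p = 0.226).

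The study's title names HDM-treated mice of both genotypes, and the next comparison sets cKO against WT under HDM. Cxcl15 fell by 1.78 ± 0.24 on the log2 scale in cKO HDM (limma adjusted p = 0.00280), to 378 ± 10.8 normalized counts, against 1317 ± 263 in WT HDM. Cxcl12 (-1.98 ± 1.00) and Cx3cl1 (-1.95 ± 0.74) were also lower without overlap, but neither passed. Across all genes 0.519% were called lower, and Cxcl15 was the only 1 of the 4 tested chemokines called. The call was lost without the second WT HDM library (-1.58, limma adjusted p = 0.0790) and narrowly without the first cKO HDM library (-1.76, limma adjusted p = 0.0534). Under PBS, cKO differed from WT by 0.11 ± 0.24 log2 units, with a 95% interval of -0.40 to 0.63 (limma adjusted p = 0.940).

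Whether the allergen response of Cxcl15 differed between genotypes was tested by the interaction. The cKO response minus the WT response was -1.90 ± 0.34 log2 units (95% interval -2.62 to -1.18), with a limma unadjusted p = 4.86e-05 and an adjusted p = 0.122, which did not pass. Only 0.0266% of genes passed in this comparison. The adjusted p depended on the settings, from 2.76e-05 with DESeq2 to 0.755 over the alternatives, and 8 of 19 alternatives called it. With edgeR it missed the threshold (adjusted p = 0.0511).

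**Figure D2:**
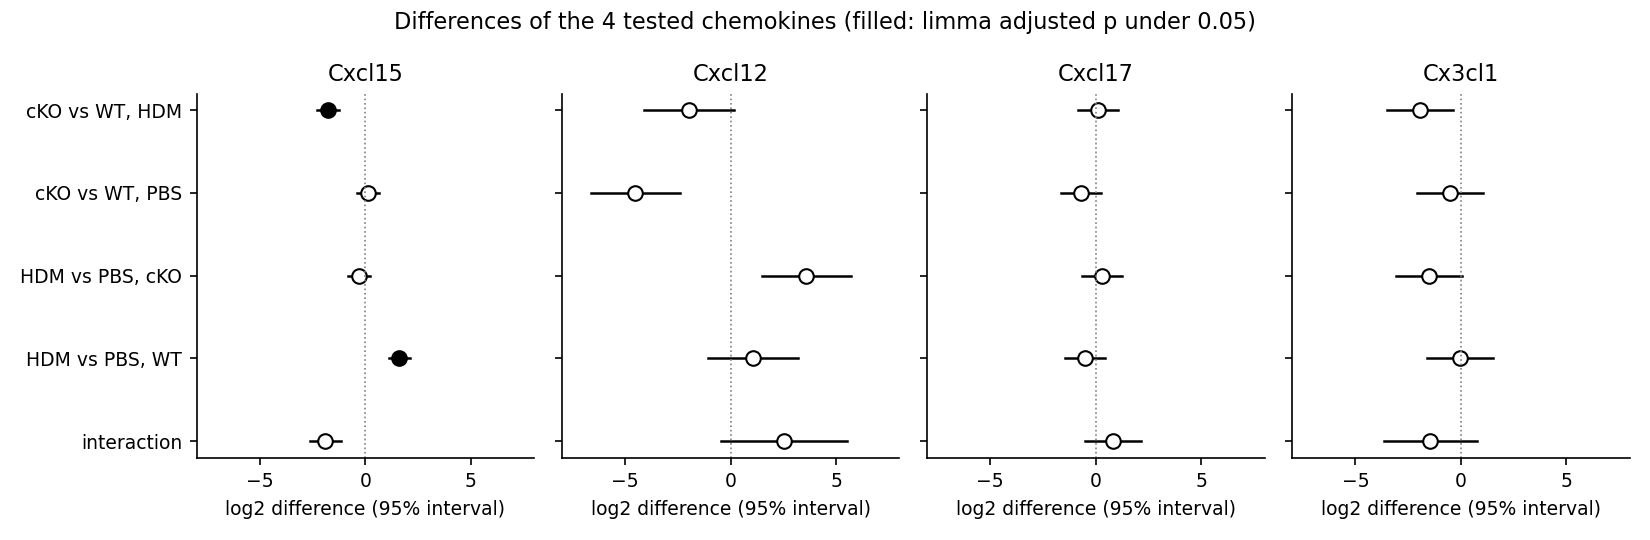
Log2 differences of the 4 tested chemokines (x axes, on the log2(normalized count + 1) scale, with 95% intervals from limma) in 5 comparisons (y axis); filled points had an adjusted p under 0.05. Cxcl15 is filled for cKO against WT under HDM (-1.78) and for HDM against PBS in WT (1.61), and the intervals of Cxcl12 and Cx3cl1 are wider than those of Cxcl15.

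**Figure D3:**
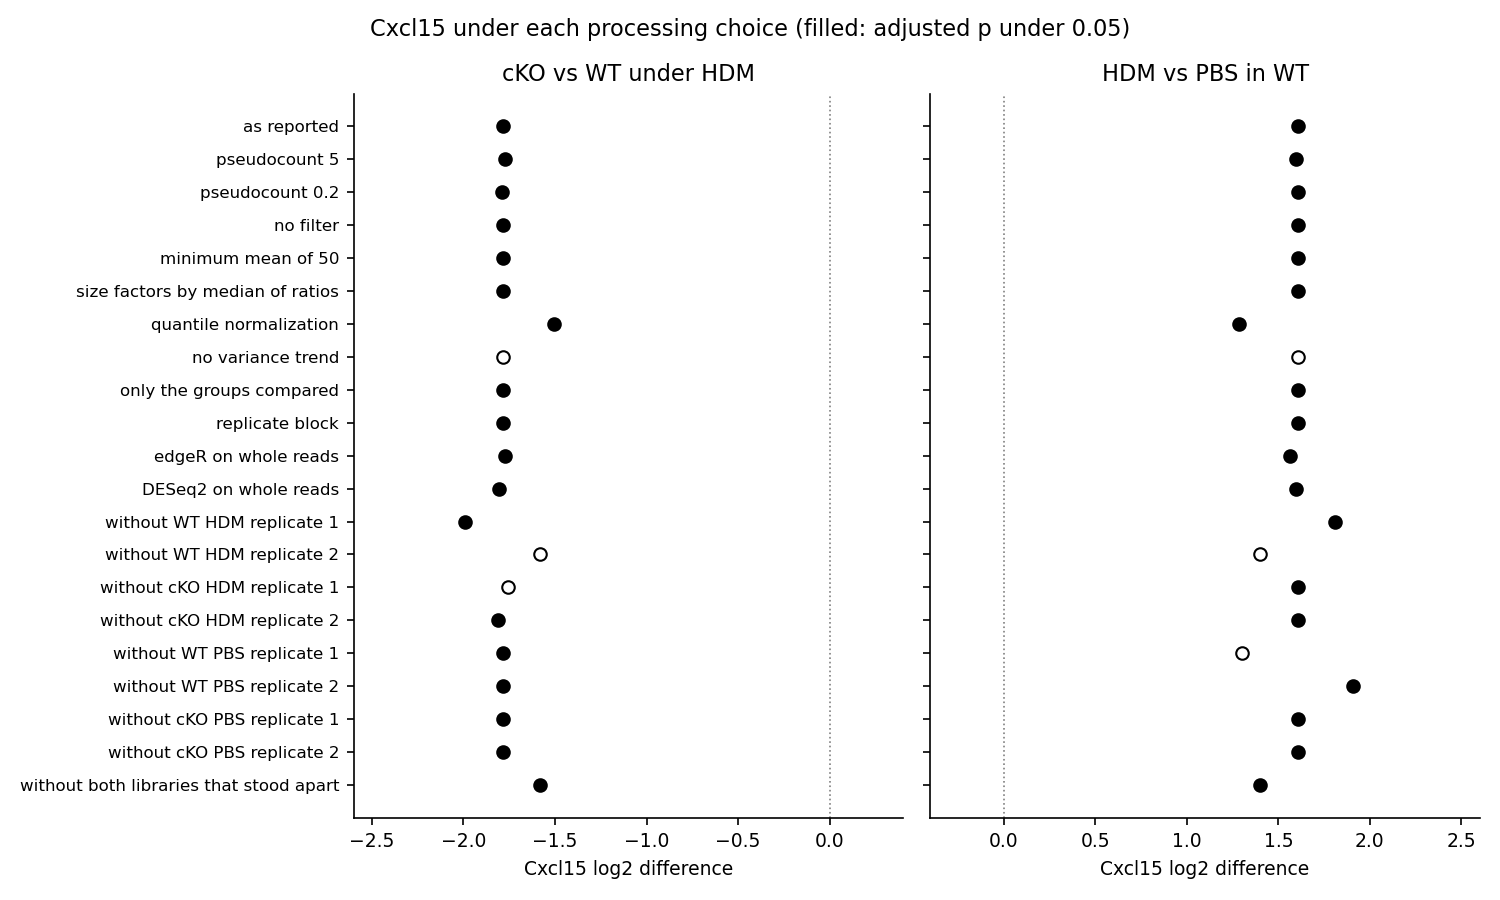
Log2 difference of Cxcl15 (x axes) under each processing choice (y axis) for cKO against WT under HDM and for HDM against PBS in WT; filled points had an adjusted p under 0.05. All points keep their side of 0, and 3 of the 20 alternatives in each comparison are open.

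Markers of alveolar type 2 cells, the surfactant-producing cells of the alveoli, moved with Cxcl15. The 16 genes of that list, which does not hold Cxcl15, summed to 5838 and 6436 normalized counts in cKO HDM, 15585 and 21311 in WT HDM, 6370 and 7383 in cKO PBS, and 5902 and 8041 in WT PBS. As a percent of that sum, Cxcl15 stood at 6.34 and 5.99 in cKO HDM, 7.26 and 7.05 in WT HDM, 6.82 and 6.69 in cKO PBS, and 5.88 and 6.56 in WT PBS. The ratio thus spanned 5.88% to 7.26%, highest in WT HDM, while Cxcl15 itself spanned 347 to 1503 normalized counts. As a percent of Sftpc alone, the surfactant protein C gene, it stood at 43.2 and 48.1 in cKO HDM, 74.5 and 52.2 in WT HDM, 44.3 and 40.9 in cKO PBS, and 45.3 and 40.9 in WT PBS. By that measure WT HDM was again the highest group, and its 2 libraries differed more than those of any other group. The list of 12 ciliated cell genes ran the other way, with 1.83% and 1.67% of reads in cKO HDM, 0.972% and 1.11% in WT HDM, 1.93% and 1.77% in cKO PBS, and 1.60% and 1.74% in WT PBS.

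In cKO against WT under HDM, all 16 type 2 genes were negative and 11 were called lower, against 0.519% of all genes. Their median log2 difference was -1.84, against 0.02 over all genes tested. In WT with HDM against PBS, all 16 were positive and 7 were called higher, against 0.506% of all genes. The median there was 1.501, against -0.03 over all genes. The list holds surfactant and lipid synthesis genes such as Sftpc, Sftpb, Fasn and Scd1, and Lyz2, which macrophages also express. It was chosen with earlier results of these data known, so its counts beside those of all genes are a description only. The part of the type 2 and ciliated transcripts in the Cxcl15 result was not tested. In bulk RNA, fewer cells of a type and less RNA per cell cannot be told apart.

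The genes whose pattern over the 8 libraries was most like that of Cxcl15 were Ager, an alveolar type 1 marker (r = 0.995, rho = 0.95), Acly, ATP citrate lyase (r = 0.98, rho = 0.88), and Lyz2, lysozyme (r = 0.97, rho = 1.00). These are Pearson and Spearman correlations of log2 values, given as a description, and they share the 2 high WT HDM libraries. The alveolar type 1 list of 10 genes, which holds Ager, was also highest in WT HDM, at 0.211% and 0.191% of reads. It took 0.115% and 0.153% in cKO HDM, 0.114% and 0.159% in cKO PBS, and 0.130% and 0.136% in WT PBS. In cKO against WT under HDM, 5 of its 7 tested genes were negative and 2 (Ager and Cav1) were called lower, against 0.519% of all genes.

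**Figure D4:**
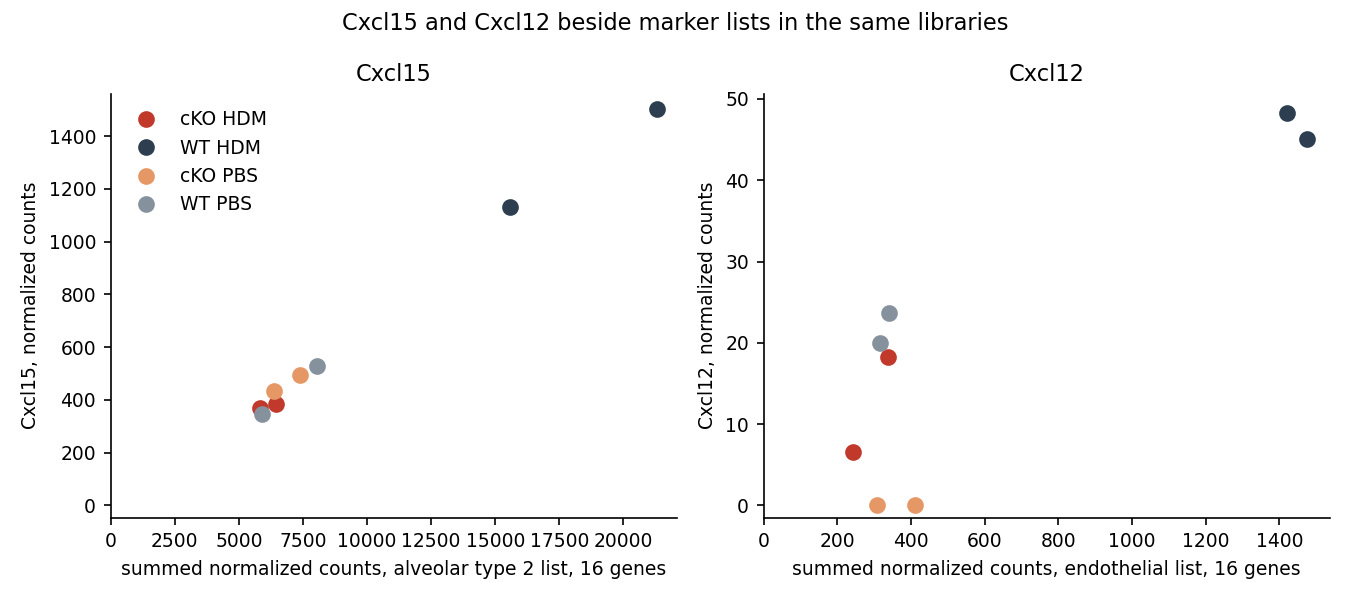
Cxcl15 beside the summed alveolar type 2 list (left) and Cxcl12 beside the summed endothelial list (right), in normalized counts on linear axes; each point is a library, coloured by group. On the left the 8 libraries run from 347 to 1503 with a ratio of 5.88% to 7.26%, and on the right 6 libraries lie at 0 to 23.7 for Cxcl12 where the list spans 242 to 412, with both WT HDM libraries high on both axes.

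The other neutrophil-attracting members were scarce. Cxcl5, made by epithelial cells in mouse lung inflammation, had no read in cKO HDM, 33 and 10 in WT HDM libraries 1 and 2, 9 and 0 in cKO PBS, and 11 and 0 in WT PBS. Its level in WT HDM was thus 21.5 and 12.9 normalized counts, above every cKO HDM and every WT PBS library. The first cKO PBS library, at 14.6, lay above the second WT HDM library. The mean of WT HDM (17.2) was 7.37-fold the mean floor of 3 reads per library in cKO HDM (2.33 normalized counts). This is a ratio of means that leaves out the spread between the WT HDM libraries. The PBS groups overlapped. Fitted without a filter on low values, the log2 difference of cKO against WT under HDM was -4.14 ± 1.59 (limma unadjusted p = 0.0245), which depends on the pseudocount and is no bound.

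No read of Cxcl2 was found in cKO HDM, against 2 and 5 reads in WT HDM, and none in the 4 PBS libraries. Cxcl1 had 4 reads in all, in the first WT HDM library. These members were at or near the floor of 3 reads, which stands for 1.96 to 4.88 normalized counts depending on the library, so differences in Cxcl1 were not detectable at this depth.

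Summed markers of leukocytes stood highest in the same WT HDM libraries. The macrophage and dendritic cell list of 14 genes summed to 4.35 and 2.49 normalized counts in cKO HDM, 71.7 and 220 in WT HDM, 6.51 and 2.54 in cKO PBS, and 5.36 and 8.18 in WT PBS, with Flt3 and Siglecf at 0 everywhere. The neutrophil list of 9 genes summed to 10.2 and 17.4 in cKO HDM, 30.7 and 155 in WT HDM, 17.9 and 6.35 in cKO PBS, and 0 and 10.003 in WT PBS, with Ly6g, Il1r2 and Camp at 0 everywhere. Their part in the Cxcl5 and Cxcl2 reads was not tested. The 8 eosinophil and mast cell markers had 0 reads in every library.

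Cxcl10, the interferon-induced T cell chemokine, had 0 and 5 reads in cKO HDM, 0 and 1 in WT HDM, 0 in both cKO PBS libraries, and 2 and 0 in WT PBS. All groups overlapped at this depth. Irf1, a transcription factor of the interferon response, lay between 24.6 and 47.2 normalized counts in every library.

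Cxcl12, the constitutive ligand of Cxcr4, stood at 6.53 and 18.3 normalized counts in cKO HDM, 48.3 and 45.1 in WT HDM, 0 and 0 in cKO PBS, and 23.7 and 20.0 in WT PBS. Both genotype comparisons were thus without overlap, with cKO below WT, and HDM libraries lay above PBS libraries in each genotype. With 0 reads in 232556 and 298311, the cKO PBS libraries allow shares of up to 0.00129% and 0.00101%. A floor of 3 reads per library in cKO PBS averages 4.34 normalized counts. The mean of WT PBS (21.9) was 5.03-fold that floor, and the mean of cKO HDM (12.4) was 2.85-fold. These are ratios of means that leave out the spread between libraries, and the first cKO HDM library was at 6.53 only.

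None of these differences of Cxcl12 passed in limma. In cKO against WT, the log2 difference was -1.98 ± 1.00 under HDM (limma adjusted p = 0.549) and -4.51 ± 1.00 under PBS (limma unadjusted p = 0.000390, adjusted p = 0.659). For HDM against PBS it was 3.59 ± 1.00 in cKO (limma adjusted p = 0.419) and 1.06 ± 1.00 in WT (limma adjusted p = 0.846). The fitted values against cKO PBS rest on the pseudocount. Under PBS, no gene of 7512 passed in limma (0%), and 523 had a limma unadjusted p under 0.05. Leaving out a library could raise the calls over all genes there, as given at the end, so passes in such fits are not particular to Cxcl12. Cxcl12 passed in 3 of 19 alternatives: without the first or the second cKO PBS library, and without both libraries that stood apart. Its log2 difference was -7.59 to -2.42 over the alternatives. In cKO, HDM against PBS passed without the second cKO PBS library (limma adjusted p = 0.0312), where 320 genes passed in place of 4.

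Endothelial markers were high where Cxcl12 was highest. The endothelial list of 16 genes summed to 242 and 338 normalized counts in cKO HDM, 1422 and 1475 in WT HDM, 412 and 307 in cKO PBS, and 340 and 316 in WT PBS. The list was therefore at a similar level in cKO PBS and WT PBS, where Cxcl12 was at 0 and at 20.0 to 23.7. Fibroblast and smooth muscle genes, 13 in all, summed to 107 and 119 in cKO HDM, 1343 and 1480 in WT HDM, 48.8 and 117 in cKO PBS, and 70.4 and 111 in WT PBS. Their part in the WT HDM level of Cxcl12 was not tested. The genes most like Cxcl12 over the 8 libraries were Gtf3c2 (a TFIIIC subunit), Itsn1 (an endocytic scaffold) and Vps37c (an ESCRT-I subunit), all at r = 0.98, with rho = 0.95, 0.83 and 0.90. Itsn1 and Vps37c, like Cxcl12, had 0 reads in both cKO PBS libraries, and Gtf3c2 had 4 and 6. Those libraries were the shallowest of the 8, and the part of depth in these likenesses was not tested.

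Cxcl17, the mucosal chemokine, was detected in every library and had the narrowest range of the 4 tested members as a ratio of highest to lowest. It stood at 56.6 and 46.5 normalized counts in cKO HDM, 71.1 and 32.2 in WT HDM, 39.0 and 44.4 in cKO PBS, and 67.4 and 70.9 in WT PBS. The WT HDM libraries spanned the whole range, and cKO PBS lay below WT PBS without overlap. Its log2 differences of cKO against WT were 0.10 ± 0.45 under HDM (95% interval -0.85 to 1.05) and -0.72 ± 0.45 under PBS (-1.67 to 0.23), with limma adjusted p = 0.979 and 0.764. HDM against PBS gave 0.29 ± 0.45 in cKO (-0.65 to 1.24) and -0.52 ± 0.45 in WT (-1.47 to 0.43), with limma adjusted p = 0.895 and 0.822. As a percent of the summed club cell list of 10 genes, Cxcl17 was 0.960 and 0.580 in cKO HDM, 1.27 and 0.455 in WT HDM, 0.281 and 0.442 in cKO PBS, and 0.765 and 0.903 in WT PBS. Its ratio to the airway list was thus less constant than that of Cxcl15 to the alveolar list. Cxcl17 had 24 to 109 reads per library and Cxcl15 had 267 to 1734, so the Cxcl17 ratio carries relatively more counting error. Vmac, Hnrnpul1 and Dcaf6 were the genes most like it (r = 0.97, 0.96 and 0.93, rho = 0.95, 0.90 and 0.83).

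Of the membrane-bound members, Cx3cl1 (fractalkine, the ligand of Cx3cr1) stood at 10.9 and 6.64 normalized counts in cKO HDM, 16.3 and 77.4 in WT HDM, 29.3 and 22.9 in cKO PBS, and 55.9 and 24.6 in WT PBS. Both cKO HDM libraries were the lowest of the 8, and the second WT HDM library, which also stood apart over all genes, was the highest. In cKO against WT the log2 difference was -1.95 ± 0.74 under HDM (limma unadjusted p = 0.0182, adjusted p = 0.389) and -0.50 ± 0.74 under PBS (limma adjusted p = 0.900). For HDM against PBS it was -1.50 ± 0.74 in cKO (limma adjusted p = 0.647) and -0.05 ± 0.74 in WT (limma adjusted p = 0.993). None passed, and under HDM the difference of cKO against WT was -0.86 without the second WT HDM library. The genes most like Cx3cl1 were Sys1, Tanc2 and Parg (r = 0.99, 0.95 and 0.94, rho = 0.98, 0.98 and 0.90).

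Cxcl16, the ligand of Cxcr6 and a scavenger receptor, missed the filter with a mean of 8.59 normalized counts. It had 18 and 15 reads in cKO HDM, 4 and 7 in WT HDM, 0 and 4 in cKO PBS, and 18 and 14 in WT PBS. In normalized counts, cKO HDM (13.1 and 12.5) lay above WT HDM (2.61 and 9.02), and cKO PBS (0 and 5.08) lay below WT PBS (13.8 and 12.7), so the direction between genotypes was opposite in the 2 treatments. Fitted without a filter, the interaction was 3.72 ± 1.69 (95% interval -0.01 to 7.46, limma unadjusted p = 0.0506, adjusted p = 0.712) and did not pass.

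Over the 4 tested members, cKO lay below WT without overlap for 3 under HDM (Cxcl15, Cxcl12 and Cx3cl1) and for 2 under PBS (Cxcl12 and Cxcl17). Of all genes tested, 21.9% and 19.1% did so. For HDM against PBS, in cKO 2 members were higher without overlap (Cxcl12 and Cxcl17, against 19% of all genes) and 2 lower (Cxcl15 and Cx3cl1, against 16.7%). In WT 2 were higher (Cxcl15 and Cxcl12, against 21.2%). Cxcl15 was thus without overlap in opposite directions in the 2 genotypes, as were 7.77% of all genes. Averaged over genotype, none of the 4 was without overlap (3.93% of all genes were in either direction). None was called with HDM against PBS by limma or edgeR (0.399% of all genes by limma), 2 had a limma unadjusted p under 0.05 (Cxcl15 at 0.66 ± 0.17 and Cxcl12 at 2.33 ± 0.70), and DESeq2 called both. The comparisons share libraries, and their values are therefore given side by side only.

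Of 26 other chemokine ligands, 12 had no read in any library, among them Cxcl3, Cxcl9, Ccl2, Ccl5 and the epithelial Ccl20, and none reached the test filter. Summed, the 26 genes had 10 and 26 reads in cKO HDM, 130 and 74 in WT HDM, 0 and 0 in cKO PBS, and 7 and 8 in WT PBS. The highest was Ccl6, with 4.35 and 6.64 normalized counts in cKO HDM, 26.7 and 20.6 in WT HDM, 0 and 0 in cKO PBS, and 2.30 and 4.55 in WT PBS. Cxcl14, a CXC ligand of epithelia and stroma, was at 7.17 and 9.02 in WT HDM and at 0 in the other 6 libraries. The sum over the list was highest in WT HDM, as were those of the leukocyte lists, but Ccl17 and Ccl28 had their few reads in cKO HDM and WT PBS libraries alone.

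Of 21 chemokine receptors, 9 had no read in any library, including Cx3cr1, Cxcr6 and Ackr1, and none reached the filter. Cxcr4, the receptor of Cxcl12, had 13.8 and 0 normalized counts in cKO HDM, 9.13 and 15.5 in WT HDM, 0 and 5.08 in cKO PBS, and 1.53 and 10.003 in WT PBS. Ackr3, which scavenges Cxcl12, had 3.63 and 4.15 in cKO HDM, 17.0 and 30.9 in WT HDM, 0 and 7.62 in cKO PBS, and 0 and 3.64 in WT PBS. Cxcr2, the neutrophil receptor of Cxcl1, Cxcl2 and Cxcl5, had 10 reads, all in the second WT HDM library.

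Of 5 genes of ligand release and trimming (Adam10, Adam17, Dpp4, the metalloprotease inhibitor Timp3 and Rhbdf2, a partner of Adam17), all were tested and none was called in any of the 6 comparisons by limma. Adam10 stood at 20.3 and 39.9 normalized counts in cKO HDM and at 71.7 and 52.9 in WT HDM, a log2 difference of -1.08 ± 0.48 (limma unadjusted p = 0.0390, adjusted p = 0.487). Adam17 was at 19.6 and 31.6 in cKO HDM and at 21.5 and 14.2 in WT HDM, a log2 difference of 0.49 ± 0.66 (limma adjusted p = 0.894). Dpp4, a protease that trims Cxcl12 and Cxcl10, was at 5.08 and 9.97 in cKO HDM and at 34.6 and 27.1 in WT HDM, without overlap, a log2 difference of -1.95 ± 1.27 (limma adjusted p = 0.673). Timp3 was at 184 and 97.2 in cKO HDM and at 0 and 61.0 in cKO PBS, a log2 difference of 4.10 ± 1.19 (limma unadjusted p = 0.00364, adjusted p = 0.420). Its 0 was in the shallowest library. Rhbdf2 lay between 6.51 and 17.8 in every library.

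Of 21 upstream genes (cytokines, their receptors, NF-κB and STAT factors), 13 were tested, and limma called none in any comparison. For cKO against WT under HDM, 2 had a limma unadjusted p under 0.05 and 11 were negative, with a median of -0.30. Of all 7512 genes, 721 had such a p and 3694 were negative, with a median of 0.02. With HDM against PBS in WT, 3 had a limma unadjusted p under 0.05 and 11 were positive, with a median of 0.47, against 671 and 3645 of all genes and a median of -0.03. Tnfrsf1a, a TNF receptor, had 29.8 and 29.9 normalized counts in cKO HDM, against 62.0 and 104 in WT HDM (limma unadjusted p = 0.0104, adjusted p = 0.317). Il1a and Tnf, inducers of Cxcl1 and Cxcl2, had no read in any library, and Il1b had 13.0 and 27.1 normalized counts in WT HDM and 0 elsewhere. Socs3, the feedback inhibitor of STAT3, was at 31.9 and 30.7 in cKO HDM and 30.0 and 32.2 in WT HDM, with a log2 difference of 0.01 ± 0.95, and Nfkbiz, a coactivator of NF-κB, was below the filter with 2.90 and 0 in cKO HDM and 5.87 and 10.3 in WT HDM. Nfkbia, an inhibitor of NF-κB, was at 26.1 and 2.49 in cKO HDM and 24.8 and 29.7 in WT HDM.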

How the data were processed

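RNA of sorted lung cells had been extracted with TRIzol and made into strand-specific libraries from 1 ng, per the labels' protocols. The authors' deposited table holds a signal value per gene and library (25124 symbols), a read count divided by 1 factor per library. HOMER, DESeq2 and mm10 are named in the submitters' processing notes, while the aligner, versions and strand setting are not stated in the sources used. Without strand, reads of overlapping or antisense genes cannot be told apart. Within each library every value was a whole multiple of 1 read (100% within 0.01 reads), and recomputed median-of-ratios factors gave the deposited values again (median shift of 0 log2 units). Recovered depth was 232556 to 593200 reads. Limits from 3 reads hold counting error alone, as PCR copies were not removed by identifiers, while intervals of log2 differences come from the spread among libraries.

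The analysis used log2(value + 1), a scale that understates changes of low genes. Genes with a mean of at least 10 (7512) were fitted with limma 3.58.1 in R 4.3.3 (1 mean per group, all 8 libraries, eBayes with a trend). Tests were two-sided, Benjamini-Hochberg adjustment ran over all genes tested, and an adjusted p under 0.05 counted as a call. Errors are SE for log2 differences and SD for normalized counts. There were 6 comparisons: cKO against WT in each treatment, HDM against PBS in each genotype and averaged over genotype, and the interaction. An exact permutation test of 2 against 2 libraries cannot go below p = 0.333 and was not used. The 2 libraries of each group differed beyond counting noise (chi-square of reads per degree of freedom, 4.82 to 6.27).

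Exon lengths are unions of GENCODE M21 exons. The named genes were the 9 members, fixed lists of ligands, receptors, enzymes and upstream genes (those called, and a fixed choice), and for each tested member the 3 genes of highest Pearson r, predicted and small RNA genes left out. Timp3, Rhbdf2, Ccl17, Ccl28, Tnfrsf1a, Il1b, Il1a, Tnf, Ccl6 and the ligands with no reads were picked after their values were seen. Members and lists were chosen with earlier results of these data known. Alternatives were other pseudocounts, filters, scalings and variance models, a replicate block, the groups compared alone, each library left out, and edgeR 4.0.16 (quasi-likelihood) and DESeq2 1.42.0 on the recovered reads.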

Additional observations from a re-analysis of the deposited data

Results flagged for a closer look

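For Cxcl15 and Cxcl16 the HDM and PBS libraries did not overlap in either genotype, and the order was opposite in the 2 genotypes. This held for 7.77% of all genes tested, a share that does not cover genes below the filter such as Cxcl16. For Cxcl15, both cKO libraries were lower with HDM than with PBS, a difference that did not pass (-0.29, limma adjusted p = 0.776), and both WT libraries were higher. The difference of the responses, cKO minus WT, was -1.90 ± 0.34 log2 units and missed the threshold in limma (adjusted p = 0.122). For Cxcl16, both cKO libraries were higher with HDM than with PBS, and both WT libraries were lower, and neither difference passed in a fit without a filter on low values (2.48 and -1.24, limma adjusted p = 0.776 and 0.794). In that fit the difference of the responses was 3.72 ± 1.69 log2 units (limma adjusted p = 0.712), and it rests on 80 reads over the 8 libraries.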

How the results depend on the processing

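Cxcl15 kept its direction under all 20 alternatives both in cKO against WT under HDM (-1.99 to -1.51, adjusted p from 4.84e-11 to 0.355) and in HDM against PBS in WT (1.29 to 1.91, adjusted p from 1.91e-08 to 0.424). In each, 17 of the 20 called it. The calls were lost without a variance trend (0 members called in each) and, in the runs that left out a library (0 to 1 called in each), without the libraries named above. The causes were not tested. Leaving out a library gave 0 to 1 members called in the other 4 comparisons too. For the interaction, 1 member (Cxcl15) was called in place of 0 with a pseudocount of 5, a minimum mean of 50, quantile normalization, DESeq2 and without both libraries that stood apart. With the replicate number as a block it was also called (1 member, -1.90, limma adjusted p = 0.0389). However, deviations of same-numbered libraries correlated at only -0.016 to 0.018. These gave no sign of a pairing by number, and the labels do not say whether there was one. The block changed no other member's call. In cKO against WT under PBS, 1 member (Cxcl12) was called in place of 0 without both libraries that stood apart. Averaged over genotype, 1 was called in place of 0 at a minimum mean of 50 and 2 with DESeq2.

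Counts over all genes moved more. HDM against PBS in WT called 39, against 108 (pseudocount 5), 16 (pseudocount 0.2), 14 (no filter), 77 (minimum mean 50), 101 (quantile), 1 (no trend), 190 (only the groups compared), 59 (edgeR), 134 (DESeq2), 59 (without both) and 3 to 110 (a library left out). In cKO it was 4, against 14, 0, 0, 16, 12, 1 and 0 in the same order up to the groups compared, then 28 (DESeq2), 123 (without both) and 0 to 320 (a library left out). For cKO against WT under HDM it was 43, against 99 (pseudocount 5), 9 (no filter), 85 (minimum mean 50), 96 (quantile), 0 (no trend), 142 (only the groups compared), 126 (DESeq2) and 3 to 117 (a library left out). Under PBS it was 0, against 98 (without both) and 0 to 312 (a library left out). The interaction called 2, against 12, 0, 0, 9, 9 and 0 in the first order up to no trend, 7 (edgeR), 27 (DESeq2), 17 (without both) and 0 to 115 (a library left out). Averaged over genotype it was 30, against 60 (pseudocount 5), 13 (no filter), 59 (minimum mean 50), 51 (quantile), 8 (no trend), 106 (DESeq2), 74 (without both) and 13 to 193 (a library left out).

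Of 460 member values, 15 changed sign, and none of these was a call. Cx3cl1 in HDM against PBS in WT was 0.14 (edgeR), 0.20 (DESeq2) and -1.14 to 1.04 with a library left out, and in cKO against WT under PBS -1.08 to 0.073. Cxcl17 in HDM against PBS in WT was 0.040 without both libraries and -1.08 to 0.040 with 1 left out. In cKO against WT under HDM it was -0.012 (edgeR), -0.032 (DESeq2), -0.46 (without both) and -0.46 to 0.65, and averaged over genotype 0.12 (without both) and -0.39 to 0.17. Cxcl15 in cKO against WT under PBS was -0.19 to 0.42. A single left-out library assumes that the lone one of its group varies like the others. The setting without both libraries was chosen after seeing the data. Depth limits the 5 untested members to a description.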
